A study of Mus musculus with 30 samples.

Results

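The mRNAs of the cytosolic ribosomal proteins were followed through the development and the repopulation of mouse microglia. Members were the rows of the deposited table whose gene symbol begins with Rpl or Rps and a number, together with Rpsa, Rplp0, Rplp1 and Rplp2, and without the Rps6k kinases and Rps19bp1. This gave 81 of 14225 transcripts, 1 for each gene symbol. They were 31 proteins of the small (40S) subunit, 38 of the large (60S) subunit, the 3 proteins of the P-stalk, 6 symbols of paralogs (Rpl7l1, Rpl22l1, Rpl32l, Rpl36al, Rpl39l and Rps4l) and 3 of pseudogenes (Rpl14-ps1, Rps15a-ps4 and Rps19-ps3). Rpl19, Rpl22, Rpl26, Rpl35a and Rpl38 were not analysed here.

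RNA came from CD11B bead-isolated microglia of whole C57BL/6J brains in 30 libraries, 3 in each of 10 groups. Dams received saline or the viral mimetic poly(I:C) in mid-gestation, and their offspring, called Saline and MIA (maternal immune activation), were taken at embryonic day 17 (E17) and at postnatal days 7, 20 and 60 (P7, P20 and P60). At P60 there were 4 groups, because Saline and MIA offspring had eaten control chow throughout (Saline + CTRL and MIA + CTRL) or chow with PLX5622, an inhibitor of the CSF1 receptor that depletes microglia, followed by control chow so that microglia repopulated the brain (Saline + MG-REP and MIA + MG-REP). One library was a litter at E17, 3 pooled brains at P7 and a single brain at P20 and P60. The inhibitor acts on every cell that depends on the CSF1 receptor, and CD11B also marks other myeloid cells. The labels give no sex, litter or batch.

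Each ribosome carries a single copy of almost every one of these proteins, and cells keep their synthesis in step. Most of their mRNAs begin with a run of pyrimidines after the cap, the 5′ terminal oligopyrimidine (TOP) motif, through which growth signals of the mTOR pathway set their translation. Demand for new ribosomes is high in dividing and growing cells. Mammalian genomes also hold many processed pseudogenes of these genes, so that short reads from the mRNAs can match more than 1 place.

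The start regions of 57 of the 81 members were found in the RefSeq promoter table (GRCm38.p6, the mm10 assembly), and those of 8 named members are printed to show how varied the annotated starts are. Each line holds 30 bases of the coding strand around the annotated transcription start. Capitals mark CTTTC or CTTCC, pyrimidine words of the TOP type, and the last 3 sequences hold neither in these 30 bases.
Rplp2 (chr7:141447636-141447665, plus strand): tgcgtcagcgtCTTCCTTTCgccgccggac
Rpl13a (chr7:45128731-45128760, minus strand): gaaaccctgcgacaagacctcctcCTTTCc
Rps26 (chr10:128626492-128626521, minus strand): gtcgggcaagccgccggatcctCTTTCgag
Rpl28 (chr7:4792950-4792979, plus strand): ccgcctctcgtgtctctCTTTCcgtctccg
Rps24 (chr14:24490663-24490692, plus strand): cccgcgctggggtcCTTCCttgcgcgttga
Rplp0 (chr5:115559452-115559481, plus strand): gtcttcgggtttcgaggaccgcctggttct
Rps19 (chr7:24884577-24884606, plus strand): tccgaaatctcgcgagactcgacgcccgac
Rps12 (chr10:23787195-23787224, minus strand): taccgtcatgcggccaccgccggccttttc
Within the window from 30 bases before to 50 after the start, on the coding strand, CTTTC or CTTCC occurred in 40 of 57 members (70.2%), against 24.4% of 27025 genes in the same table. CCGGAAG, a word of the ETS family of factors whose reverse complement CTTCCGG overlaps CTTCC, was searched on both strands from 250 bases before to 50 after the start. It occurred in 36.8% of members and 9.1% of all genes. TATAAA within the 50 bases before the start occurred in 1.8% of members and 2.9% of all genes. These are matches of letters and not measured sites.

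The table gives TPM, a transcript's share of a library's RNA molecules, which is a level per transcript length that sums to about the same total in each library. The levels of the members spanned a ratio of 1211 between the highest and the lowest mean over 30 libraries. Among the highest were Rpl8, a 60S protein beside the peptidyl transferase center, with a mean of 2402 TPM, and Rps9 of the 40S subunit with 2120 TPM. The lowest were Rpl31 with 1.98 TPM, Rps24 with 2.40 TPM and Rpl39l with 5.35 TPM. In all, 11 genes lay above 1000 TPM, 28 between 100 and 1000, 21 between 20 and 100, and 21 below 20. The 10 highest made up 60.3% of the summed TPM. A measured level therefore does not follow the equal copy number of the proteins.

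Reads in this series were 40 bases long. Of 80 members with an annotated transcript (all but Rpl32l), the share of 40-base words that also occur in transcripts of other genes had a median of 58.0% and reached 97.4% in Rpl35. These other genes were not only pseudogenes, whose transcripts held 31.4% of the words of Rpl35. Whether the other genes overlap the same place in the genome was not examined. Rps3, which binds the mRNA entry channel, shared 5.0% and Rpl8 9.0%. Rpl5 and Rpl11, which carry the 5S rRNA into the large subunit, shared 94.4% and 62.7% and had mean levels of 11.4 and 14.2 TPM. With pseudogenes alone they shared 42.7% and 62.7%. Across the 80 genes the Spearman correlation between the shared share and the mean TPM was -0.27, a description over genes that share libraries and are not independent. Among copies, 81.9% of the words of Rpl14-ps1 lay in Rpl14, 40.2% of those of Rps15a-ps4 in Rps15a and 29.2% of those of Rps19-ps3 in Rps19, so their reads could not be fully separated. The words that Rpl32l shares with Rpl32 were not measured. Rps4l, Rpl36al, Rpl39l and Rpl7l1 shared 0.0% with Rps4x, Rpl36a, Rpl39 and Rpl7.

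**Figure D1:**
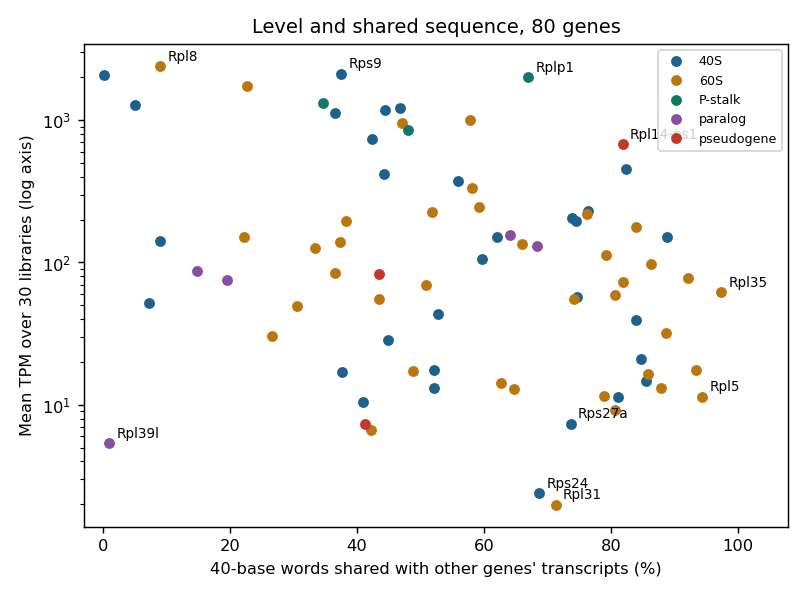
Each point is 1 of 80 members, with the percentage of its 40-base words found in transcripts of other genes on the horizontal axis and its mean TPM over 30 libraries on a log vertical axis, colored by class. Genes with under 40% shared, such as Rpl8 and Rps3, lie between 5.35 and 2402 TPM, with a median of 140 TPM. Genes with over 70% shared lie between 1.98 and 680 TPM, with a median of 56.9 TPM.

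Ribosomal protein mRNA was a larger part of the microglial transcriptome at E17 and P7 than at P20 and P60, and it was high again in the repopulated microglia of Saline offspring. The 81 genes together held 3.49% ± 0.184 of the TPM in E17 Saline (SD, n = 3) and 3.37% ± 0.193 in E17 MIA. At P7 the shares were 3.26% ± 0.148 in Saline and 3.09% ± 0.295 in MIA. At P20 they were 2.15% ± 0.314 and 2.16% ± 0.0481, in the same order. All 12 libraries of E17 and P7, with 2.81% to 3.69%, lay above all 12 of P20 and the P60 CTRL groups, with 1.80% to 2.38%. In the P60 CTRL groups the shares were 1.98% ± 0.146 in Saline + CTRL and 2.08% ± 0.0928 in MIA + CTRL. Saline + MG-REP held 3.35% ± 0.163 and MIA + MG-REP 2.39% ± 0.0467. The 3 Saline + MG-REP libraries, at 3.52%, 3.19% and 3.34%, lay within the range of E17 and P7. The 3 MIA + MG-REP libraries, at 2.41%, 2.34% and 2.43%, lay above every CTRL library, the highest of which had 2.15%. A share of the RNA in a bulk sample cannot tell fewer cells of a kind from less RNA per cell, and TPM gives no absolute amount.

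**Figure D2:**
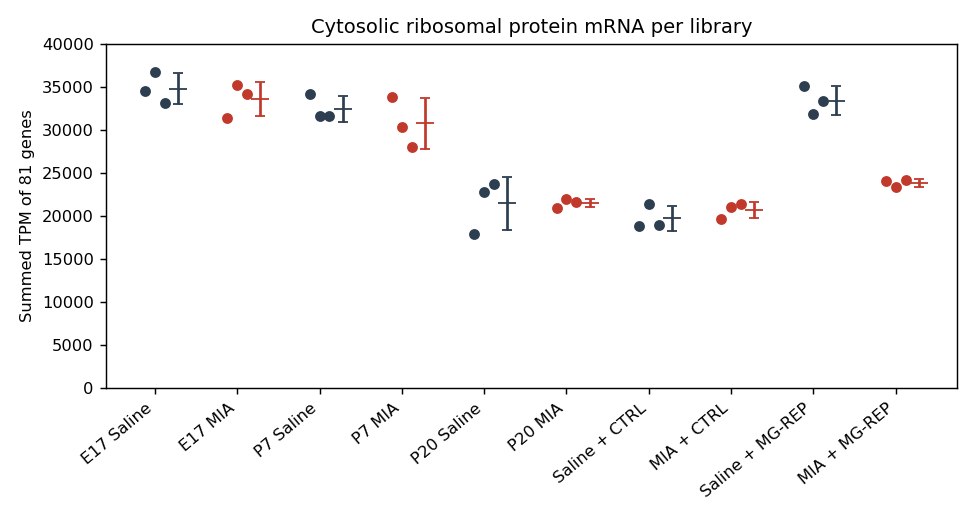
Summed TPM of the 81 genes in each of 30 libraries (points, dark for Saline and red for MIA), with the mean and SD of the 3 libraries of a group beside them. The Saline + MG-REP libraries sit between 31830 and 35098 TPM, and the MIA + MG-REP libraries between 23328 and 24205 TPM.

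The summed TPM of the 40S proteins was 1.33 to 1.35 times that of the 60S proteins in the group means of E17 and P7, and 1.39 to 1.48 times in those of P20 and P60. Single libraries overlapped, since P20 Saline replicate 3 (1.31) and Saline + MG-REP replicate 1 (1.34) lay within the range of E17 and P7 (1.305 to 1.365). The ratio was highest in MIA + MG-REP (1.48 ± 0.0130, n = 3) and 1.43 ± 0.0324 in MIA + CTRL. It rests on the few genes above 1000 TPM.

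Single genes were tested with limma on log2(TPM + 1) in 1 model of all 10 groups, with p-values adjusted by Benjamini-Hochberg over all 14225 transcripts, and a change was called at an adjusted p-value under 0.05. A log2 fold change is a difference of group means on that scale, which understates the change of genes near 0 TPM. P-values rest on the spread between samples within groups, pooled over all 10 groups, and not on that of the compared groups alone.

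From E17 to P7 the members did not move past the test. None of 81 was called in Saline offspring, where 4.32% of all transcripts were called in either direction, and none in MIA offspring, where 2.39% were. At an unadjusted p-value under 0.05, limma gave 4 members and 2653 of all transcripts in Saline, and 5 members and 1793 of all transcripts in MIA. The median log2 fold change of the members was -0.11 in Saline, against 0.05 over all transcripts, and -0.12 in MIA, against -0.02. Rpl8 held 3100, 3340 and 3084 TPM in the E17 Saline libraries and 3211, 2904 and 2883 TPM at P7, so that the groups overlapped.

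Between P7 and P20 most members fell in both lines of offspring. In Saline, 53 of 81 (beside 20.1% of all transcripts called lower) fell and 2 rose (beside 16.1% called higher), with a median log2 fold change of -0.55, against -0.02 over all transcripts. In MIA, 52 fell and none rose (beside 22.5% of all transcripts called lower), with a median of -0.53, against -0.09. Of the 53 and the 52 genes, 49 were the same. By class, 21 of 31 genes of the 40S and 26 of 38 of the 60S subunit were called in Saline, in either direction. So were 2 of 3 of the P-stalk, 4 of 6 paralogs and 2 of 3 pseudogenes. The 40S count includes Rps12 and Rps24, which rose. In MIA the counts were 18, 24, 2, 6 and 2. Markers of border macrophages fell in the same step, with a mean summed level of 1873 TPM at P7 and 764 TPM at P20 in Saline and of 1671 and 658.5 TPM in MIA. Of 6 such markers 3 were called lower in each line (Pf4, Mrc1 and Lyve1), and their part in the fall of the members was not tested.

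The largest falls among genes whose groups did not overlap were, in Saline, Rpl32l (-1.04 ± 0.104, log2 ± SE, limma adjusted p = 5.6e-08), Rps26 of the mRNA exit channel (-1.03 ± 0.0923, adjusted p = 7.9e-09) and Rps19, which is mutated in Diamond-Blackfan anemia (-1.02 ± 0.159, adjusted p = 2.7e-05). Rps26 held 1011, 963 and 938 TPM in P7 Saline and 432, 501 and 497 TPM in P20 Saline. In MIA they were Rpl28 (-1.59 ± 0.284, limma adjusted p = 0.00012), Rpl39l (-1.59 ± 0.559, adjusted p = 0.029) and Rpl27 (-1.15 ± 0.275, adjusted p = 0.0021). Rpl28 of the 60S subunit held 23.2, 28.8 and 26.4 TPM in P7 MIA and 7.40, 7.21 and 9.54 TPM in P20 MIA. Rpl39l was at 10 TPM or less in each of these 6 libraries, and its call was lost without any of 3 libraries (P7 MIA replicates 1 and 2 and P20 MIA replicate 1). Of the 2 rises in Saline, Rps12 (0.50 ± 0.189, limma adjusted p = 0.043) held 33.4, 27.3 and 33.0 TPM at P7 and 40.1, 37.7 and 57.4 TPM at P20. Rps24 (1.09 ± 0.392, adjusted p = 0.032) held 0.00, 1.08 and 3.16 TPM at P7 and 2.16, 3.51 and 4.90 TPM at P20, and its groups overlapped. Both calls were lost when only the groups compared entered the fit, with adjusted p-values of 0.085 for Rps12 and 0.11 for Rps24. They were also lost without any of 4 single libraries each, with values of 0.31 to 0.55 for Rps12 (lowest without P20 Saline replicate 3) and 0.57 to 1.10 for Rps24 (lowest without P7 Saline replicate 1).

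Between P20 and P60 few members moved. In Saline, 3 fell (beside 2.49% of all transcripts called lower) and in MIA 2 fell (beside 1.57%), and none rose in either. At an unadjusted p-value under 0.05 there were 23 members and 2334 of all transcripts in Saline, and 18 members and 2509 of all transcripts in MIA. Rpl12, a protein at the base of the stalk, fell in both, by 0.78 ± 0.173 on the log2 scale in Saline (limma adjusted p = 0.014) and by 0.80 ± 0.173 in MIA (adjusted p = 0.014). It held 56.7, 97.1 and 121 TPM in P20 Saline and 45.3, 55.6 and 51.8 TPM in Saline + CTRL. Rplp0 (-0.49 ± 0.113) and Rpl6 (-0.35 ± 0.0788) were the other two in Saline, and Rpl10a (-0.46 ± 0.124) the other in MIA. The Saline count ran from 0 (without P20 Saline replicate 3 or Saline + CTRL replicate 1) to 8 (without P20 Saline replicate 1), and it was 0 after median-ratio scaling. The MIA count was 0 without P20 MIA replicate 1 or 2 or MIA + CTRL replicate 2, and 1 without any of the other 3 libraries.

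Over the whole course from E17 to the P60 CTRL groups, with Saline and MIA averaged, 69 of 81 members fell (beside 34.2% of all transcripts called lower) and 3 rose (beside 27.5% called higher). Their median log2 fold change was -0.82, against -0.06 over all transcripts, and single genes ran from -1.66 to 1.09. The largest falls without overlap were Rpl27 (-1.66 ± 0.195), Rpl39l (-1.32 ± 0.395) and Rps27a, which is made as a fusion with ubiquitin (-1.31 ± 0.210, limma adjusted p = 8.5e-06). The 3 that rose were Rps24 (1.09 ± 0.277, adjusted p = 0.0016), Rpl23a (0.72 ± 0.262, adjusted p = 0.020) and Rpl31 (0.57 ± 0.188, adjusted p = 0.012). Rps24 was the only one of these 3 whose 6 E17 libraries, at 0.53 to 2.46 TPM, did not overlap the 6 CTRL libraries, at 2.50 to 5.97 TPM. Each of these 3 genes was measured by 1 transcript, which for Rps24 is NM_207635, and the whole gene may differ. The call of Rpl23a was lost without E17 MIA replicate 2, Saline + CTRL replicate 2 or MIA + CTRL replicate 1, and that of Rpl31 with only the groups compared (adjusted p = 0.076). The 9 genes that were not called were Rps12, Rps15, Rps21, Rps27, Rpl9, Rpl10, Rpl36a, Rplp1 and Rps19-ps3.

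Among genes with well known roles outside protein synthesis the fall was also present. Rps6, the substrate of the S6 kinases, fell by 0.45 ± 0.107 on the log2 scale from E17 to P60. Rpsa, known as the laminin receptor precursor, fell by 0.89 ± 0.0869. Rps3 fell by 0.55 ± 0.0744 and Rpl13a, which takes part in the interferon-gamma response of myeloid cells, by 0.60 ± 0.0639. Rpl5 fell by 0.94 ± 0.113 and Rpl11 by 0.57 ± 0.201, and both bind MDM2 when they are not in ribosomes.

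The call of a gene went with its level. Of the 28 members with a mean between 100 and 1000 TPM, 28 were called from P7 to P20 in Saline, 28 from E17 to P60 and 28 in Saline + MG-REP against Saline + CTRL. Of the 11 above 1000 TPM, 9 were called in each of these, and the 2 that were not were Rplp1 and Rps21 each time. Of the 21 below 20 TPM, 4, 16 and 4 were called, with a median SE of 0.284 in the first and the last of these comparisons, against 0.116 between 100 and 1000 TPM. A low gene that did not pass the test is therefore not shown to have stayed at its level.

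**Figure D3:**
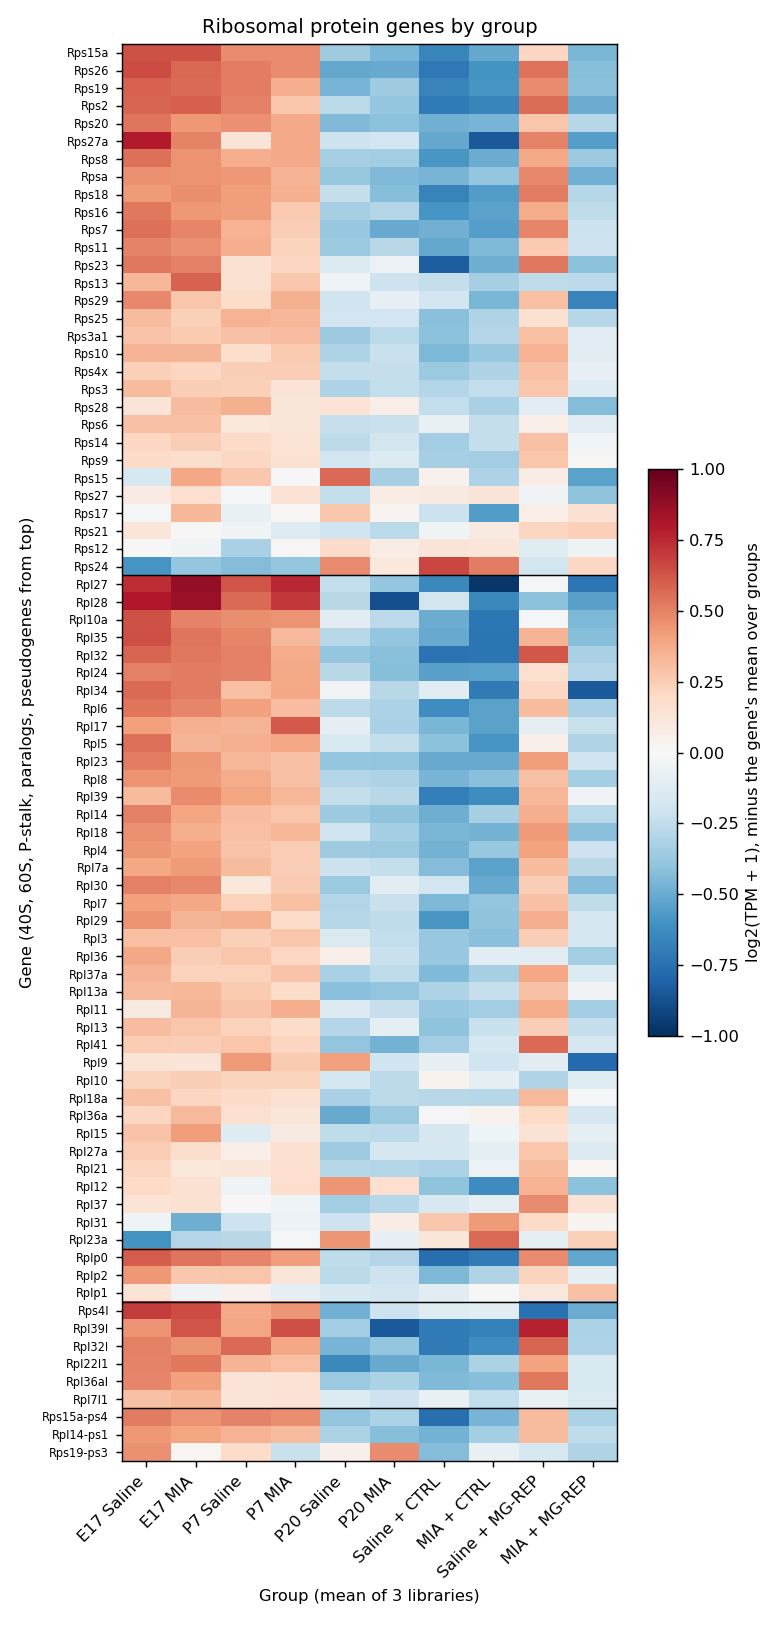
Group means of log2(TPM + 1) for 80 of the genes in rows, by class, and the 10 groups in columns, each gene shown relative to its own mean over groups (red higher, blue lower, in log2). E17, P7 and Saline + MG-REP are red for most genes, and Rps24, Rpl31 and Rpl23a, at the foot of their classes, are blue at E17.

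Maternal immune activation on its own did not move a ribosomal protein gene past the test at any age. At E17, P7, P20 and P60 (CTRL), limma called 0 of 81 members, and also 0.0% of all transcripts in either direction in each of the 4 comparisons (0.0%, 0.0%, 0.0% and 0.0%). At an unadjusted p-value under 0.05 there were 0, 0, 2 and 2 members, and 585, 335, 457 and 256 of 14225 transcripts. The 2 members at P20 were Rps15 (-0.83 ± 0.288) and Rpl9 (-0.58 ± 0.211), and those at P60 were Rpl21 (0.26 ± 0.111) and Rps15a-ps4 (0.27 ± 0.124). The median log2 difference of MIA from Saline over the members was -0.04 at E17, -0.03 at P7, -0.01 at P20 and 0.06 at P60, against 0.10, 0.03, -0.05 and 0.03 over all transcripts. The lower and upper quartiles of the members lay between -0.10 and 0.12 in each of the 4 comparisons.

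Ribosomal protein mRNA held a larger share of the TPM in the repopulated microglia of Saline offspring than in the resident microglia of Saline + CTRL. Of 81 members, 54 rose (beside 11.9% of all transcripts called higher) and 1 fell (beside 14.9% called lower). The median log2 fold change was 0.67 over the members and -0.14 over all transcripts. The 54 genes were all among the 69 that had fallen from E17 to P60, a comparison that uses the same Saline + CTRL libraries. By class, 21 of 31 of the 40S subunit and 26 of 38 of the 60S subunit were called, in either direction. So were 2 of 3 of the P-stalk, 4 of 6 paralogs and 2 of 3 pseudogenes. The paralogs include Rps4l, which fell.

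The largest rises without overlap were Rpl32 (1.36 ± 0.128, limma adjusted p = 1.6e-08), Rps23 at the decoding center (1.34 ± 0.249, adjusted p = 0.00021) and Rpl32l (1.29 ± 0.104, adjusted p = 1.4e-09). Rpl32 held 533, 559 and 515 TPM in Saline + CTRL and 1444, 1346 and 1346 TPM in Saline + MG-REP. Rpl8 held 1617, 1870 and 1550 TPM in Saline + CTRL and 3238, 2638 and 2684 TPM in Saline + MG-REP. In both genes each repopulated library was above each resident library. Whether reads of Rpl32 and Rpl32l were separable was not measured.

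In MIA offspring the same comparison, against MIA + CTRL, called 1 of 81 members (beside 0.387% of all transcripts called higher). This was Rpl39, a small protein of the exit tunnel, with a log2 fold change of 0.59 ± 0.135 (limma adjusted p = 0.041). It held 75.7, 102 and 104 TPM in MIA + CTRL and 137, 132 and 154 TPM in MIA + MG-REP. The call was lost without MIA + CTRL replicates 1 or 2 or any MIA + MG-REP library, after either other scaling, without the trend, with the replicate block (adjusted p = 0.060) and with only the groups compared. The median log2 fold change over the members was 0.17, against -0.08 over all transcripts, with 61 members above 0. At an unadjusted p-value under 0.05 there were 21 members and 882 of all 14225 transcripts.

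The difference between the 2 repopulation effects was tested as an interaction. It was below 0 (a smaller rise in MIA offspring) in 38 of 81 members and above 0 in none (beside 6.09% of all transcripts called lower), with a median of -0.53, against 0.04 over all transcripts. The count was 25 after median-ratio scaling and 24 after quantile normalization. The 3 largest were Rps23 (-1.29 ± 0.352, limma adjusted p = 0.019), Rps2 of the mRNA entry channel (-1.09 ± 0.180, adjusted p = 0.00023) and Rps26 (-1.08 ± 0.131, adjusted p = 4.4e-06). Rps23 held 22.4, 16.2 and 17.3 TPM in Saline + MG-REP and 7.09, 12.8 and 7.87 TPM in MIA + MG-REP. Its groups did not overlap, but its interaction was at adjusted p = 0.052 after quantile normalization and was lost without MIA + CTRL replicate 3, Saline + MG-REP replicate 1 or MIA + MG-REP replicate 1. Rps2 held 272, 267 and 243 TPM in Saline + CTRL, 276, 280 and 251 TPM in MIA + CTRL, 744, 573 and 568 TPM in Saline + MG-REP and 291, 292 and 325 TPM in MIA + MG-REP.

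Between the 2 repopulated groups themselves, MIA + MG-REP was lower than Saline + MG-REP in 50 of 81 members and higher in none (beside 11.0% of all transcripts called lower). The median log2 difference was -0.51, against 0.12 over all transcripts. The largest were Rps2 (-1.04 ± 0.127, limma adjusted p = 1.5e-06), Rpl34 (-1.03 ± 0.326, adjusted p = 0.024) and Rplp0 (-0.99 ± 0.113, adjusted p = 5.5e-07). This comparison, the interaction and the repopulation effect in Saline offspring all use the 3 Saline + MG-REP libraries. Without Saline + MG-REP replicate 1, the count was 39. Rpl34 was no longer called without that library or without MIA + MG-REP replicate 3.

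**Figure D4:**
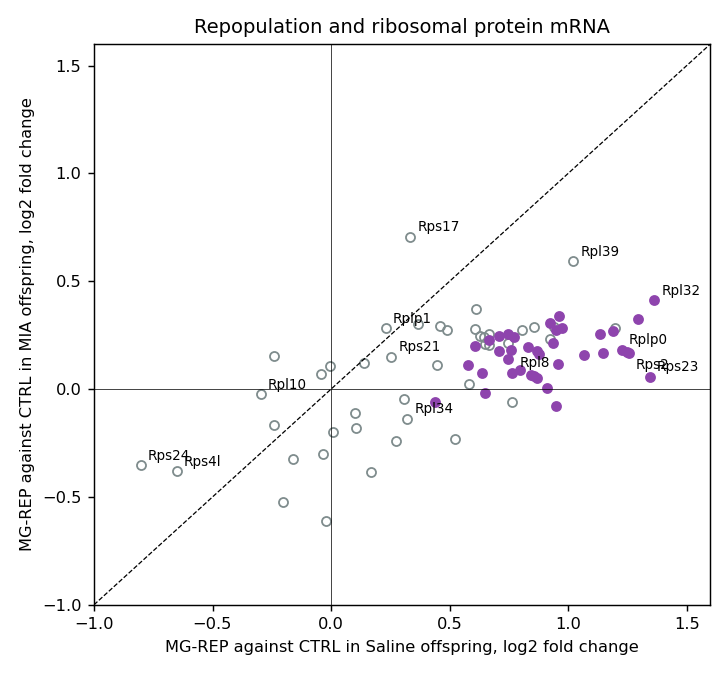
Log2 fold change of MG-REP against CTRL in Saline offspring (horizontal) and in MIA offspring (vertical) for the 81 genes, with the diagonal of equal effects dashed. Filled points are the 38 genes whose effects differed by limma's interaction test, and all of them lie below the diagonal.

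The P-stalk, which draws elongation factors to the ribosome, showed unequal values within 1 structure. Rplp0, its anchor, held 427, 491 and 499 TPM in Saline + CTRL and 1276, 1014 and 1040 TPM in Saline + MG-REP. Its log2 fold change was 1.23 ± 0.113 (limma adjusted p = 1.2e-08), and the groups did not overlap. Rplp2, an acidic partner, held 1033, 1007 and 783 TPM and 1235, 1622 and 1634 TPM in the same groups, a log2 fold change of 0.67 ± 0.130 (adjusted p = 0.00037), which was at 0.063 with only the groups compared. Rplp1, the other acidic partner, held 1623, 2122 and 1755 TPM and 1898, 2183 and 2355 TPM, with overlap and a log2 fold change of 0.23 ± 0.137 (adjusted p = 0.24). From E17 to P60 the log2 fold changes were -1.30 ± 0.0797 for Rplp0, -0.73 ± 0.0918 for Rplp2 and -0.10 ± 0.0971 for Rplp1, of which the last did not pass the test (adjusted p = 0.36). The differences between these genes were not tested.

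The X-linked members differed in whether they passed the test, and the differences between them were not tested. By Xist and Y-linked genes, Saline + CTRL replicates 2 and 3 came from males and the Saline + MG-REP libraries from females. Rps4x rose in Saline + MG-REP by a log2 fold change of 0.66 ± 0.0994 and Rpl39 by 1.02 ± 0.135. Rpl10, a late-joining protein at the subunit interface, had -0.30 ± 0.181 (limma adjusted p = 0.25, and 0.041 without Saline + CTRL replicate 2) and Rpl36a 0.11 ± 0.294 (adjusted p = 0.84). Rps4x held 168, 185 and 170 TPM in Saline + CTRL and 299, 257 and 275 TPM in Saline + MG-REP.

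Rps4l, grouped with the paralogs by its symbol but annotated by RefSeq as a transcribed pseudogene on chromosome 6, was the 1 member that fell in Saline + MG-REP. It held 71.8, 61.4 and 62.2 TPM in Saline + CTRL and 30.2, 46.6 and 48.9 TPM in Saline + MG-REP. The groups did not overlap, and the log2 fold change was -0.65 ± 0.162 (limma adjusted p = 0.0038). Its call was lost without Saline + MG-REP replicate 1 (adjusted p = 0.053) and with only the groups compared (adjusted p = 0.078). With the other members it had fallen from P7 to P20, by 0.87 ± 0.162 on the log2 scale in Saline. None of its exact 40-base words lay in Rps4x, while 19.5% lay in the transcript of 1 other pseudogene. How the mapping assigned such reads was not measured.

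The other paralogs and pseudogenes went with the rest or did not pass the test. Rpl22l1, Rpl32l and Rpl36al rose in Saline + MG-REP by log2 fold changes of 0.88 ± 0.115, 1.29 ± 0.104 and 0.95 ± 0.140. The words that Rpl32l shares with Rpl32 were not measured, so their reads may not be separable. Rpl14-ps1 (0.80 ± 0.108) and Rps15a-ps4 (1.07 ± 0.124) rose as well, at levels of 680 and 83.0 TPM over 30 libraries, and their reads may in part be those of Rpl14 and Rps15a. Rpl39l (1.20 ± 0.559), Rpl7l1 (0.00 ± 0.103) and Rps19-ps3 (0.17 ± 0.391) did not pass the test. Rpl39l held 1.48, 9.13 and 16.3 TPM in the 3 Saline + MG-REP libraries.

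Across the 30 libraries, the correlation of a member with the mean of the other 80 had a median Pearson r of 0.906, a description in which all points share libraries and groups. It was over 0.8 in 51 genes and under 0.5 in 12. Rpl8 (0.991) and Rps19 (0.983) were among the most alike. Rps24 (-0.656), Rpl23a (-0.475) and Rps12 (-0.327) were the least, and with Rpl31 they were the 4 genes below 0.

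**Figure D5:**
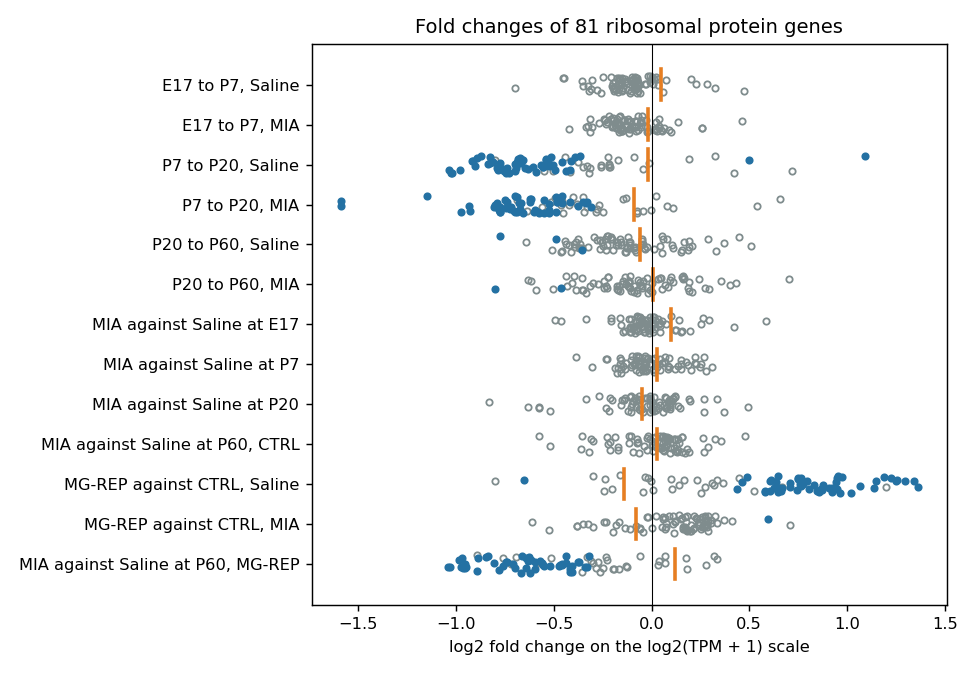
Log2 fold changes of the 81 genes (points, filled where limma's adjusted p-value was under 0.05) in 13 comparisons, with the median of all 14225 transcripts as an orange bar. Most members lie left of the bar from P7 to P20, and right of it for MG-REP in Saline offspring, whereas no member is filled for MIA against Saline at E17, P7, P20 or P60 with control chow.

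Other parts of the translation machinery were described from lists, by counts and medians and without a test of the list. Over all transcripts 11.9% rose in Saline + MG-REP with a median of -0.14, and from P7 to P20 20.1% fell in Saline and 22.5% in MIA. In Saline + MG-REP against Saline + CTRL, Rack1, a ribosomal protein whose name falls outside the rule, rose by a log2 fold change of 1.26 ± 0.130, whereas Fau, another such protein, had -0.12 ± 0.286. Of 24 initiation factors 18 rose and 1 fell, with a median of 0.43 and Eif3e (1.00 ± 0.0870) as the largest. Of 7 elongation factors 4 rose, with a median of 0.70, led by Eef1a1 (a log2 fold change of 0.82). Of 18 transcripts of other TOP genes, which include some of these factors, 11 rose, with a median of 0.69. Of 37 transcripts of ribosome biogenesis 11 rose, with a median of 0.27, and of 74 mitochondrial ribosomal proteins 29 rose, with a median of 0.26. In MG-REP against CTRL of MIA offspring 0 of each of these lists passed limma's adjusted threshold, and the medians were 0.21, 0.01, -0.02, 0.12, -0.07 and -0.07. From P7 to P20 in Saline, 19 initiation factors, 4 elongation factors, 13 transcripts of TOP genes, 11 of ribosome biogenesis and 34 mitochondrial ribosomal proteins fell. In MIA the counts were 22, 5, 11, 23 and 53, in the same order, and the difference between the lines was not tested. Eif4a2, an initiation factor, rose in this step by log2 fold changes of 0.92 ± 0.138 in Saline and 0.91 ± 0.138 in MIA, and it was the 1 initiation factor that fell in Saline + MG-REP (-0.42 ± 0.138).

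Of 13 transcripts for the growth control of these mRNAs (mTOR, MYC and LARP families), 3 rose in Saline + MG-REP. These were Eif4ebp1 (1.06 ± 0.279), Rheb (0.37 ± 0.104) and Eif4ebp2 (0.33 ± 0.113). The median was -0.14, equal to that of all transcripts, of which 11.9% rose. Myc, Larp4, Tsc1 and Tsc2 had no row and were not measured here. Of 45 short transcripts of the respiratory chain 18 rose and the median was 0.35. Of 616 other transcripts under 1 kb with a mean of at least 10 TPM, 173 rose and 55 fell, and the median was 0.17. These transcripts were not matched to the members by level, and the part of transcript length was not tested.

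Several other measures moved with these results, and their part in them was not tested. The summed TPM of 16 mitotic genes was 1398 to 1674 at E17 and P7, 28.2 to 66.3 at P20 and in the CTRL groups, 695 to 1969 in Saline + MG-REP and 35.8 to 36.7 in MIA + MG-REP. In MIA + MG-REP the summed ribosomal protein TPM was 23328 to 24205, above all 6 CTRL libraries, while the mitotic sum lay within their range. The 3 Saline + MG-REP libraries had mitotic sums of 1969, 797 and 695 TPM and member sums of 35098, 31830 and 33356 TPM. Of 10 immediate early genes 8 fell in Saline + MG-REP, where 14.9% of all transcripts did, and 1, Nr4a1, rose (0.94 ± 0.193).

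By Xist and 4 Y-linked genes all 6 repopulated libraries came from females, with Xist at 159 to 174 TPM and the Y-linked sum at 0.09 to 0.62 TPM. In each CTRL group replicate 1 had the female pattern and replicates 2 and 3 the male. With Xist as a covariate, 50 members rose in Saline + MG-REP and 37 passed the interaction test. All P20 libraries had the female pattern, whereas 5 of the 6 P7 libraries and all E17 libraries had both signals. The 1 P7 library with the female pattern was MIA replicate 2, with a member sum of 30396 TPM. Between P7 and P20 the sex pattern and age changed together and could not be told apart. The part of sex in the fall of the members was not tested.

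Microglial markers were high in every library (5 of 5, summed 14958 to 42938 TPM), and 4 of the 5 fell in Saline + MG-REP. Neutrophil and monocyte markers (5 of 6 measured, none at 0) summed to 4592 TPM in Saline + MG-REP replicate 2, against 83.7 and 314 TPM in the other two and 614 to 786 TPM in Saline + CTRL. Of these 5 genes Ccr2 rose (1.57 ± 0.285, limma adjusted p = 0.00017), while the median of the list was -0.90. Without that library 53 members rose. Border macrophage markers (6 of 6) summed to 687 to 1320 TPM in Saline + MG-REP and 422 to 568 TPM in Saline + CTRL, but the list did not rise as a whole, with a median log2 fold change of -0.05. Pf4 rose (1.97 ± 0.341), Cd163, which was at 0 in 2 of the 30 libraries, fell (-0.58 ± 0.160), and the other 4 did not pass the test. Myelin markers (4 of 5) summed to 955 to 2619 TPM at P20 and 122 to 240 TPM at P7. Of the neuronal markers 3 of 5, of the astrocyte markers 5 of 5, of the endothelial markers 3 of 5, of the choroid plexus markers 4 of 5 and of the erythroid markers 1 of 8 had a row. Across libraries these lists summed to 12.3 to 863, 1.31 to 247, 20.9 to 104, 412 to 12362 and 0.00 to 4.56 TPM, in that order, with Plcd4, Gdpd2 and Aqp4 of the astrocytes at 0 in 1 to 3 libraries. In MG-REP against CTRL of Saline offspring, the calls in these 5 lists came to 1 transcript, Ocln of the endothelial list, which fell.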

How the data were processed

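The authors made non-stranded poly(A) libraries, mapped the 40-base reads by Rsubread (mm10), used featureCounts for counting and kept 14225 transcripts. The deposited values are TPM computed by the authors, whose formula is not given in the sources used here. No counts were used. Reads per library, estimated from the steps between low TPM and transcript lengths (found for 98.45% of rows), ran from 7990000 to 12820000. At 1 kb, 1 read was worth 0.211 to 0.354 TPM. The estimates are approximate, since 72.2% to 77.5% of low values lay within 0.2 of a whole read, where chance gives 40%.

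In R 4.3.3, limma 3.58.1 was fitted to log2(TPM + 1) with all 10 groups in 1 model and a mean-variance trend. P-values were adjusted by Benjamini-Hochberg over all transcripts, with a threshold of 0.05. Members and gene lists were chosen with earlier results of these data known. Named were every paralog and pseudogene, 11 genes with textbook roles, 4 X-linked genes, the 3 highest and lowest, the 3 most and least alike, and per comparison the 3 largest rises and falls among called genes without overlap. From other lists, up to 3 were taken by the same rule. Other genes with calls or values of note, such as Rps21, Rpl21, Rps15 and Rpl9, were named after their values were seen.

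Shared words were taken from GENCODE M21 transcripts, and starts from RefSeq (GRCm38.p6). The fit was tested on simulated data for 1 comparison (E17 to P7, Saline, 14225 rows). Of genes changed by a log2 of 0.5, 1 and 2, 38.8%, 71.6% and 89.4% were called. These were 26, 48 and 59 genes, beside 10 false calls. Alternatives were another pseudocount (0.1), a minimum mean TPM of 1, median-ratio scaling, quantile normalization, a replicate block, no trend, only the groups compared, Xist as a covariate and each library left out. Replicate numbers correlated above 0.1 in every pair only for MIA against Saline at P20, and the labels give no shared litter or day. A few values of single genes that the rules would name are not reported here.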

Additional observations from a re-analysis of the deposited data

Results flagged for a closer look

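The repopulation effect (MG-REP against CTRL) differed between MIA and Saline offspring by limma's interaction test in 38 members, and each of these differences was below 0. The largest by the rule for named genes were Rps23, with a log2 difference of -1.29, Rps2 with -1.09 and Rps26 with -1.08. Rplp0, the anchor of the P-stalk, had -1.04. What the difference rests on was not tested, since the Saline + MG-REP libraries also differ from the MIA + MG-REP libraries in their mitotic genes. Outlying samples were not tested within groups of 3 libraries.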

How the results depend on the processing

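Counts of members called between P7 and P20 (38 to 57), from E17 to P60 (70 to 73), for MG-REP in Saline offspring (47 to 57) and between the repopulated groups (39 to 50) stayed within 1.5 times their values in every alternative, single libraries left out included. The interaction count of 38 was 25 after median-ratio scaling and 24 after quantile normalization, and 26 to 40 with single libraries left out. Single counts were more fragile. The 3 members that fell from P20 to P60 in Saline became 0 after median-ratio scaling and 0 with only the groups compared, and 0 to 8 with single libraries left out. The 2 in MIA became 1 after median-ratio scaling, 1 with the replicate block and 1 without the trend, and 0 to 1 with single libraries left out. The 1 member for MG-REP in MIA offspring became 0 after median-ratio scaling, quantile normalization, the replicate block, removal of the trend or restriction to the groups compared, and 0 to 1 with single libraries left out. From E17 to P7 in Saline the count of 0 became 0 to 1 with single libraries left out, the 1 arising without P7 Saline replicate 2. The cause was not tested. MIA against Saline gave 0 members under every alternative at all 4 ages before or without repopulation. Whether the replicate numbers pair samples is not known, since the labels give no shared litter or day. The replicate block moved no other count by over 1.5 times. After median-ratio scaling the summed TPM was 37960 in Saline + MG-REP instead of 33428 and 25010 in MIA + MG-REP instead of 23856. Without paralogs and pseudogenes it was 31504 and 22595 TPM. For MIA against Saline at E17, quantile normalization moved the median of all transcripts from 0.10 to -0.02 and that of the members from -0.04 to -0.06, and at P20 the members' median turned from -0.01 to 0.04 and 0.05 after the 2 other scalings. Among single genes, the replicate block also ended the call of Rps12 from P7 to P20 (adjusted p = 0.053). Since 1 read at 1 kb is worth 0.211 to 0.354 TPM, members near 2 TPM rest on few reads, and small changes of the 21 genes below 20 TPM may not have been detectable.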
